A study of Mus musculus with 12 samples.

Results

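The circadian clock genes Clock, Arntl, Per1, Per2, Per3, Cry1, Cry2, Nr1d1, Nr1d2 and Dbp were taken by name from the deposited table, where they are 10 of 55487 genes. RNA of the whole hippocampus was sequenced from 6 WT and 6 USF-1 KO animals, with 1 library per mouse. All mice were of the C57Bl/6JRccHsd strain and 3 to 4 months old, and both genotypes came as littermates from heterozygous breeding. The KO was inherited through the germline and not limited to a cell type, so that effects arising in the hippocampus and elsewhere in the body cannot be told apart. By the labels the WT group held 4 females and 2 males, and the USF-1 KO group held 2 and 4. Mice lived in a 12:12 h cycle of light and dark and were killed by cervical dislocation. The hour at which each mouse was killed is not given in the sources used here, so whether collection times differed between the genotypes was not tested.

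The molecular clock is a feedback loop found in most cells. CLOCK and BMAL1, the product of Arntl, bind as a pair to the E-box CACGTG and switch on the Per and Cry genes, whose proteins in turn inhibit the pair. The same pair drives Nr1d1 and Nr1d2, which encode the REV-ERB receptors that repress Arntl, and Dbp, an output factor that binds D-boxes in further genes. USF-1 recognises the same CACGTG hexamer as the CLOCK-BMAL1 pair. Through the day Arntl is lowest near the time at which Nr1d1 and Dbp are highest.

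Promoter windows from RefSeq on GRCm38.p6, from 250 bases before to 50 after each start site, were at hand for 9 of the 10 genes, as 13 windows; Per2 had none. The letters CACGTG were found in the first of 2 windows of Per1 and in the window of Cry1, against 7.15% of all 32851 windows. Those upstream stretches are shown because they hold the hexamer that USF-1 and CLOCK-BMAL1 share, Per1 from chr11:69098699-69098948 on the forward strand and Cry1 from chr10:85185055-85185304 on the reverse strand. Capitals mark CACGTG and, in Cry1, the variant CACGTT, which is read as AACGTG on this strand.

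Per1: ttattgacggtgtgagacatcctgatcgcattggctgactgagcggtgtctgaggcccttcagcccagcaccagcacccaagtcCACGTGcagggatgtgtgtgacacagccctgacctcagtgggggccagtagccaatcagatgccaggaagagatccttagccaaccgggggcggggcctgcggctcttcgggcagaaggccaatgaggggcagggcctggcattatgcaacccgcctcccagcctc

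Cry1: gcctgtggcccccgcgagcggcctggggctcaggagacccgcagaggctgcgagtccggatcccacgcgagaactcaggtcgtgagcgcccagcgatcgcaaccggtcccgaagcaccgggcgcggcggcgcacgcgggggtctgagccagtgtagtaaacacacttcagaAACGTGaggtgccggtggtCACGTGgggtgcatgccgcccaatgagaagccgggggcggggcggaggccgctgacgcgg

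The variant CACGTT was also present in Cry2 and Nr1d1, against 4.68% of all windows. Per3 held the D-box TTATGTAA at 2 positions, against 1.06% of windows with TTATGTAA or TTACGTAA. The second window of Arntl held TAGGTCA, the core of the element bound by the REV-ERB and ROR receptors, against 2.61%. The cyclic AMP element TGACGTCA, present in 1.79% of all windows, was in none of the 13. Both strands were searched, and a match of letters is not evidence of binding.

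Each library held from 21679622 to 32091173 reads assigned to genes. Usf1 had a normalised read count of 1409 ± 284 in WT and 141 ± 15.0 in USF-1 KO mice (mean ± SD, n = 6), with no overlap. Usf1 was lower in WT-493, at 842, than in the other WT mice, at 1425 to 1583. Markers of the choroid plexus, a tissue beside the hippocampus, summed to 57123 in WT-490 and 161518 in WT-493, against 767 to 2681 in the other 10 mice. The 5 oligodendrocyte markers, which include Mbp and Mog, summed in USF-1 KO to 64.8% of WT, with ranges of 51842 to 81080 and 59235 to 127950. The 6 microglia markers summed to 85.6% of WT, with all 6 differences negative. An unadjusted p under 0.05 with limma was met by 5 of these 6, against 13.5% of all genes. None of them passed an adjusted p of 0.05, the lowest limma adjusted p being 0.115. For excitatory neurons, inhibitory neurons, astrocytes and endothelium, 0 of 6 markers each had an unadjusted p under 0.05. The 6 excitatory neuron markers summed to 107.7% of WT, with ranges that overlapped. In whole tissue, fewer cells of a type and less RNA per cell cannot be told apart.

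Levels are normalised read counts, and differences are KO minus WT on the scale of log2(normalised read count + 1), tested with limma across 18221 genes with Benjamini-Hochberg adjustment. None of the 10 clock genes passed an adjusted p of 0.05, a threshold passed by 164 genes or 0.900% of those tested. At an unadjusted p under 0.05 the count was 5 of 10, against 13.5% of all genes, with Dbp, Per3, Cry2 and Nr1d1 higher in USF-1 KO and Cry1 lower. This count depended on the fit. It was lowest with the oligodendrocyte marker level as a covariate, at 2 of 10, against 1917 of 18221 genes. Leaving out WT-522 gave the highest, 7 of 10, against 2958 of 18221 genes. The values of the genotypes overlapped for 10 of 10, while 1.50% of all genes had no overlap. The median difference over the 10 genes was 0.13, and 8 differences were positive and 2 negative; over all genes tested the median was close to 0.

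**Figure D1:**
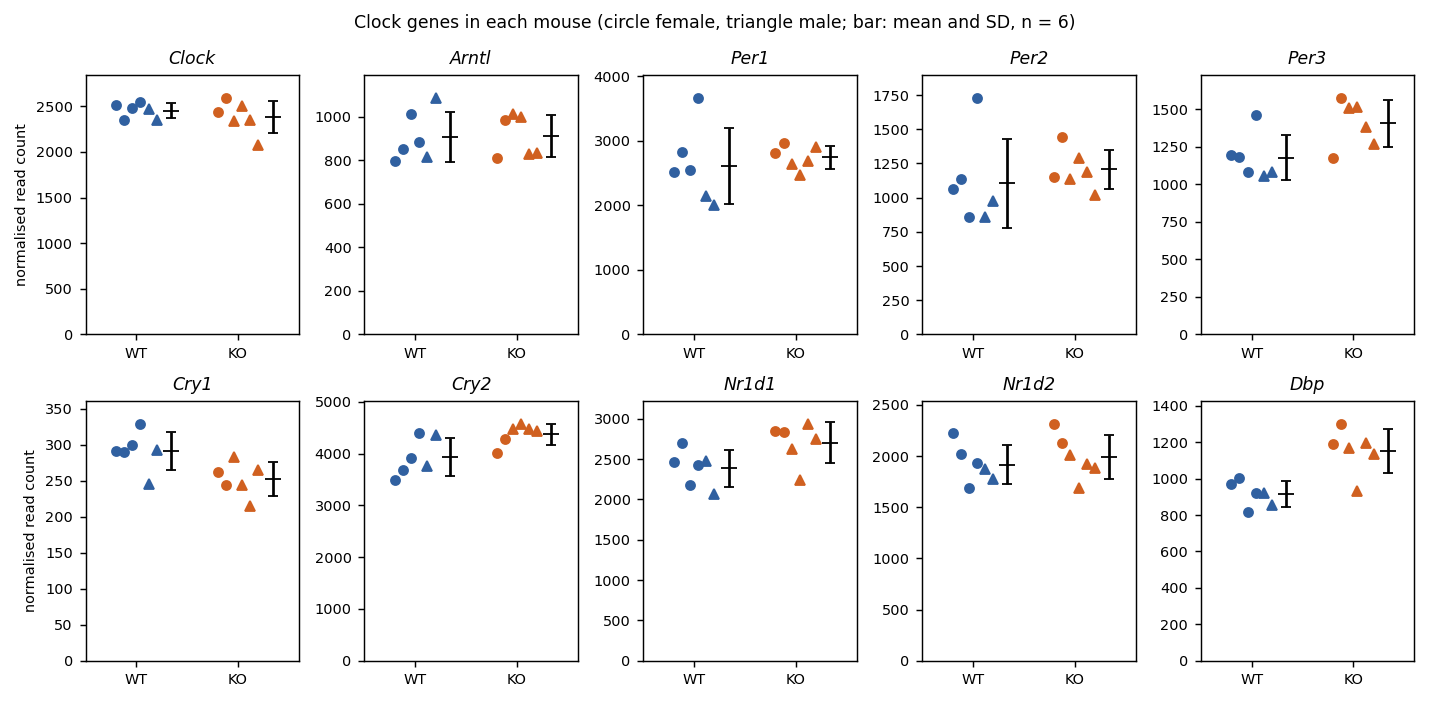
Normalised read count of each clock gene (vertical axes, starting at 0) in every WT and USF-1 KO mouse; circles are females, triangles males, and bars the mean and SD of 6 mice. The Dbp values of 5 USF-1 KO mice lie above all WT mice, and 1 WT mouse, WT-522, stands high for Per1, Per2 and Per3.

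Dbp showed the smallest p of the 10. The gene is located at chr7:45705088-45710203 (GRCm38, forward strand). In WT mice its counts were 971 in WT-490, 923.5 in WT-493, 920 in WT-522, 816 in WT-523, 854 in WT-547 and 1005 in WT-573. In USF-1 KO mice they were 1133 in KO-482, 1168 in KO-484, 1191 in KO-488, 1297 in KO-530, 932 in KO-553 and 1198 in KO-564. Thus 5 of 6 USF-1 KO mice were above the highest WT mouse, and KO-553 lay within the WT range. The means were 915 ± 70.3 and 1153 ± 122 (SD, n = 6), a KO to WT ratio of 1.26 with a 95% interval of 1.13 to 1.40. The difference was 0.33 (SE 0.073, limma adjusted p = 0.0532), and a two-sided exact permutation test of Dbp alone gave p = 0.00649, with 0.00216 the smallest p that 6 against 6 mice allow.

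Dbp thus lay next to the threshold, and its call turned on the method and on single mice. It passed with DESeq2 (adjusted p = 0.00208, 3.38% of genes called), with sex as a covariate (limma adjusted p = 0.0462, 0.538% of genes called), without WT-522 (limma adjusted p = 0.0402, 2.83% of genes called) and without KO-553 (limma adjusted p = 0.00954, 0.532% of genes called). Without WT-490 and WT-493 together, the mice with high choroid plexus markers, its difference was 0.36 (limma adjusted p = 0.133), and with the oligodendrocyte marker level as a covariate it was also 0.36 (limma adjusted p = 0.244). Over 27 alternatives, these included, it was positive throughout, from 0.29 to 0.39. Among females it was 0.43 (4 WT, 2 KO) and among males 0.31 (2 WT, 4 KO). On the opposite strand 18.0% of the exon bases of Dbp overlap Sphk2, whose difference was -0.06; whether counting used strand is not given in the sources used here.

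The activators showed the smallest differences. Clock, a histone acetyltransferase and the partner of BMAL1, ranged in WT from 2348 through a median of 2477 to 2552, and in USF-1 KO from 2074 through 2391 to 2589. Its difference was -0.05, with a 95% interval of -0.15 to 0.06 (limma adjusted p = 0.735). Arntl ranged in WT from 797 through a median of 869 to 1085 and in USF-1 KO from 811 through 907 to 1014, so that the ranges nearly coincided. Its difference was 0.01, with a 95% interval of -0.18 to 0.19 (limma adjusted p = 0.978).

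Of the Per genes, which encode the inhibitory PERIOD proteins, Per3 had the smallest p. Per3 ranged in WT from 1057 through a median of 1131 to 1461 and in USF-1 KO from 1177 through 1446 to 1573. All 6 USF-1 KO mice were above the WT mean, and 3 were above the highest WT mouse. The difference was 0.26 (SE 0.087, limma adjusted p = 0.199). Per1, which also responds quickly to neuronal activity, ranged in WT from 2013 through 2530 to 3661 and in USF-1 KO from 2469 through 2753 to 2959, with a difference of 0.10 (SE 0.11, limma adjusted p = 0.767). Per2 ranged in WT from 858 through 1022 to 1728 and in USF-1 KO from 1023 through 1172 to 1445, with a difference of 0.16 (SE 0.14, limma adjusted p = 0.674).

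A single WT mouse carried much of the spread of the Per genes. WT-522 had the highest Per1 and Per2 of all 12 mice and the highest Per3 of the WT mice. The 12 immediate early genes, which neuronal firing induces and which include Fos and Arc, summed to 29821 in WT-522 and to 13391 to 21901 in the other 11 mice. WT-522 also had the lowest oligodendrocyte sum of the WT mice, at 59235. Without WT-522 the differences became 0.32 for Per3 (limma adjusted p = 0.0336), 0.30 for Per2 (limma adjusted p = 0.114) and 0.20 for Per1 (limma adjusted p = 0.235). The parts of neuronal activity and of tissue make-up in these values were not tested, beyond 2 covariates chosen after the data were seen. With the immediate early level as a covariate the differences were 0.26, 0.17 and 0.10 for Per3, Per2 and Per1, whereas with the oligodendrocyte marker level they were 0.03, -0.24 and -0.15.

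The Cry genes, whose proteins join PERIOD in inhibiting CLOCK-BMAL1, had differences of opposite sign. Cry1, whose transcript reaches its daily peak later than those of the other E-box genes, ranged in WT from 245 through a median of 292 to 328 and in USF-1 KO from 215 through 253 to 283. All 6 USF-1 KO mice were below the WT mean, and 5 of 6 WT mice were above the highest USF-1 KO mouse, with WT-493 the exception. The difference was -0.21 (SE 0.079, limma adjusted p = 0.259). Cry2, the second cryptochrome, ranged in WT from 3496 through 3828 to 4405 and in USF-1 KO from 4004 through 4453 to 4560. Of the USF-1 KO mice, 4 were above the highest WT mouse, and the difference was 0.16 (SE 0.058, limma adjusted p = 0.239). Exact permutation tests of single genes, not adjusted for the genes examined, gave p = 0.026 for Cry1, 0.0303 for Cry2, 0.0281 for Per3 and 0.0606 for Nr1d1. For Clock, Arntl, Per1, Per2 and Nr1d2 the exact p lay between 0.364 and 0.946.

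Nr1d1 ranged in WT from 2062 through a median of 2448 to 2704 and in USF-1 KO from 2238 through 2799 to 2930. Of the USF-1 KO mice, 4 were above the highest WT mouse, and KO-553 was again the lowest of its genotype. The difference was 0.18 (SE 0.074, limma adjusted p = 0.286). Nr1d2, the related REV-ERB gene, ranged in WT from 1685 through 1901 to 2230 and in USF-1 KO from 1692 through 1967 to 2309, with a difference of 0.05 (SE 0.077, limma adjusted p = 0.812). Nr1d1 shares 8.55% of its exon bases with Thra on the opposite strand, and Thra differed by 0.11.

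**Figure D2:**
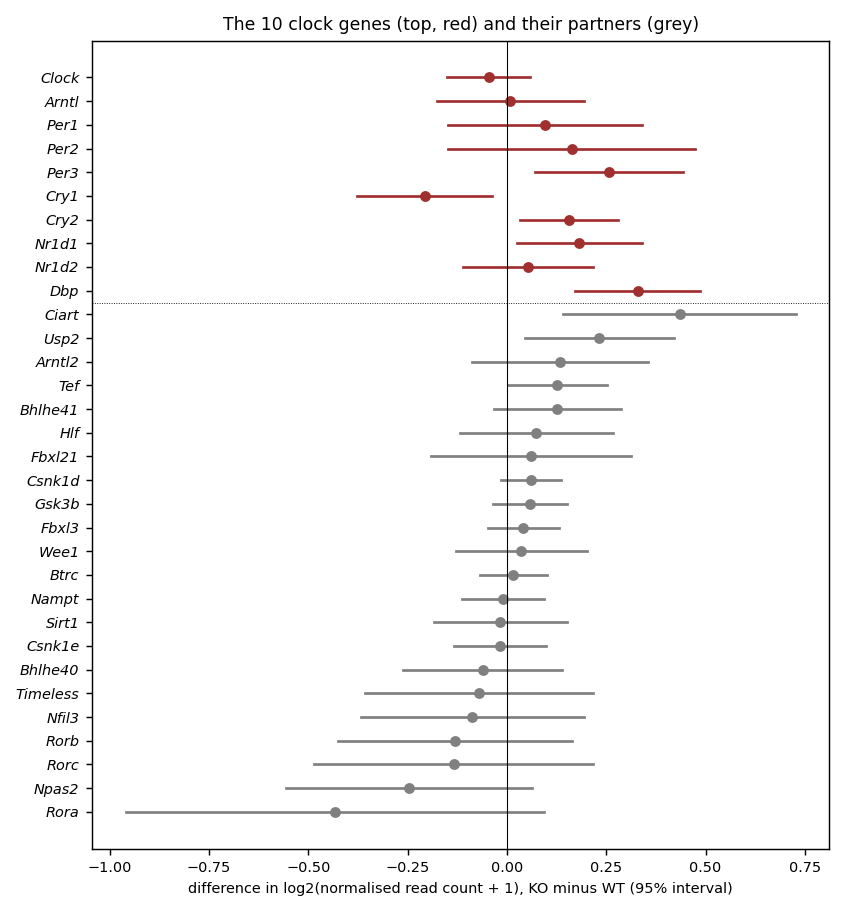
Difference between USF-1 KO and WT mice in log2(normalised read count + 1) for the 10 clock genes (red, top) and 22 partner genes (grey); points are limma estimates and lines unadjusted 95% intervals. The intervals of Per3, Cry1, Cry2, Nr1d1 and Dbp, and of the partners Ciart, Usp2 and Tef, leave out 0 before adjustment. The interval of Arntl is centred on 0.

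Of the 22 partner genes of the clock, 0 passed an adjusted p of 0.05 with limma, edgeR or DESeq2. Over all genes the share was 0.900% with limma, 151 of 18221 with edgeR and 3.38% with DESeq2. An unadjusted p under 0.05 with limma was met by 3, or 13.6%, next to 13.5% of all genes, so that the share was that of the background. The 3 were Ciart, a repressor of CLOCK-BMAL1, with a difference of 0.43 (SE 0.14, limma adjusted p = 0.164), Usp2, a clock-regulated deubiquitinase, with 0.23 (limma adjusted p = 0.249), and Tef, a relative of Dbp that binds the same D-box, with 0.13 (limma adjusted p = 0.361). Npas2, which can replace Clock as the partner of BMAL1, had a difference of -0.25 (limma adjusted p = 0.487). Hlf, the third factor of the D-box family, had 0.07, Bhlhe41 0.13, and Nfil3, a repressor at D-boxes, -0.09. An index meant to follow daily phase, called the phase index, was made without the 10 genes. It is the mean centred log2 level of Tef, Hlf, Ciart, Bhlhe41 and Usp2 less that of Npas2 and Nfil3. It was -0.18 ± 0.19 in WT and 0.18 ± 0.14 in USF-1 KO mice (SD, n = 6), with ranges of -0.46 to 0.01 and 0.01 to 0.34 that overlapped slightly. This index is a description. Because it nearly separated the genotypes, a fit with it as a covariate can hardly part the index from genotype. In that fit the difference of Dbp was 0.36 (limma adjusted p = 0.322), that of Cry1 -0.05 and that of Per1 0.48. The genes called over all were 8 in that fit, against 164 without the covariate. Within a genotype the slope on the index was -1.05 for Per1 (limma adjusted p = 0.348) and -0.09 for Dbp (limma adjusted p = 0.923). Among the genes of the index itself it was 0.50 for Usp2, -1.33 for Npas2 and -1.004 for Nfil3, and -0.31 for Tef, -0.09 for Hlf, -0.90 for Ciart and -0.02 for Bhlhe41, with no adjusted p below 0.348. Tef, Hlf, Ciart and Bhlhe41 thus entered the index with a plus sign but had negative slopes on it. That the index follows daily phase within a genotype is therefore not shown, and its name states only what it was made for.

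Mice of the same genotype also differed in their clock genes. Arntl was compared with the other 9 genes as deviations from the genotype mean over 12 mice, with 100000 permutations within genotype and adjustment over the 9 relations. Arntl and Nr1d1 deviated in opposite directions (Pearson's r = -0.75, permutation p = 0.0061, adjusted p = 0.0553; Spearman's rho = -0.66, permutation p = 0.0261, adjusted p = 0.153), which missed the threshold after adjustment. Without the 2 mice farthest from the median of Arntl, WT-547 and KO-484, r was -0.67, with an adjusted permutation p of 0.342. It was -0.87 in WT (n = 6, exact permutation p = 0.0361) and -0.62 in USF-1 KO (n = 6, exact permutation p = 0.171), both unadjusted. The Pearson coefficients of Arntl with Nr1d2, Dbp and Cry2 were -0.56, -0.49 and 0.59 (adjusted permutation p = 0.227, 0.253 and 0.227). With Clock, Per1, Per2, Per3 and Cry1 they lay between -0.27 and 0.31, with adjusted permutation p of 0.608 or more. For Per3 the genotypes differed in sign. Its r with Arntl was 0.90 in USF-1 KO (n = 6, exact permutation p = 0.0347) and -0.27 in WT (n = 6, exact permutation p = 0.656), both unadjusted.

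**Figure D3:**
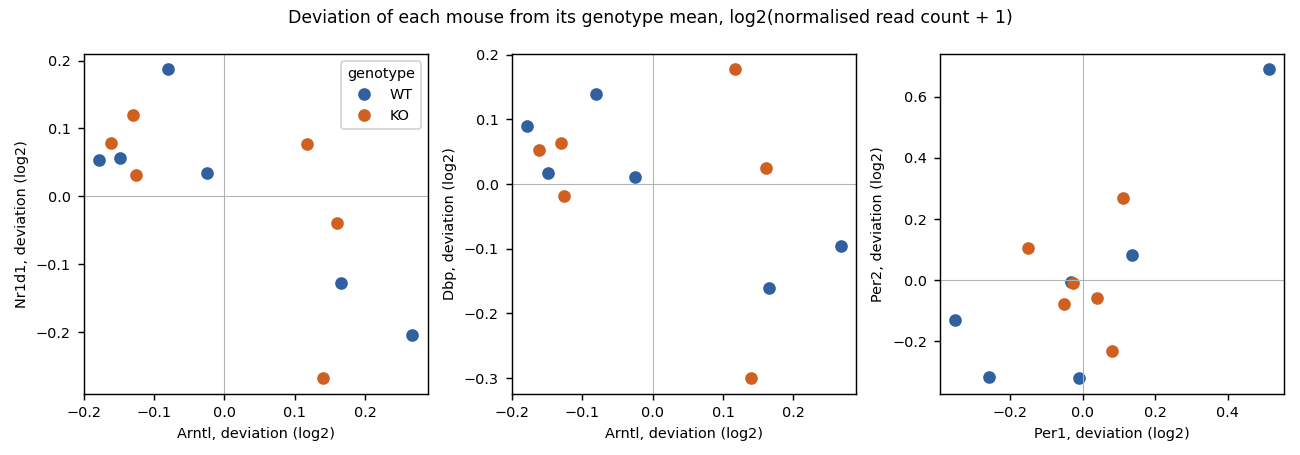
Deviation of each mouse from its genotype mean in log2(normalised read count + 1), for Nr1d1 and Dbp against Arntl and for Per2 against Per1; each point is a mouse, blue for WT and orange for USF-1 KO. Nr1d1 is lower where Arntl is higher (r = -0.75), while in the right panel WT-522 is the point at the upper right.

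Among all pairs of the 10 genes, given as descriptions with no test, the deviations formed 2 blocks. Dbp went with Nr1d1 (r = 0.90) and Nr1d2 (r = 0.81), and Nr1d1 with Nr1d2 (r = 0.70). Per2 went with Per3 (r = 0.84) and Per1 (r = 0.74), and Per1 with Per3 (r = 0.57), a block in which WT-522 was the extreme mouse. Between the blocks the coefficients ran from -0.02 for Per3 with Nr1d1 to 0.47 for Per1 with Nr1d1. Outside the blocks, Cry2 went against Nr1d2 (r = -0.64), Nr1d1 (r = -0.52) and Dbp (r = -0.46), and with Arntl (r = 0.59).

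**Figure D4:**
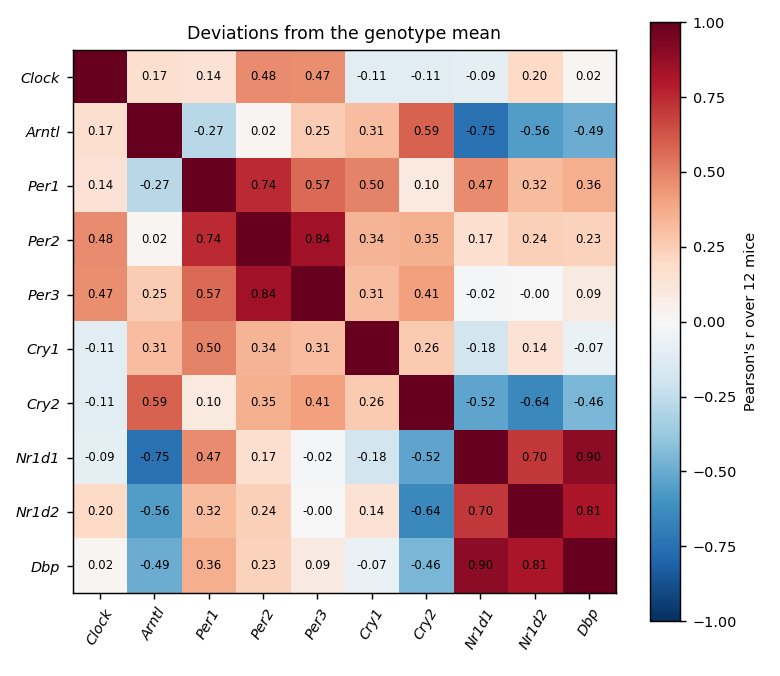
Pearson's r between the deviations of each pair of clock genes from the genotype mean over 12 mice, from blue (-1) to red (1). Nr1d1, Nr1d2 and Dbp form a block at the lower right and Per1, Per2 and Per3 another at the centre, and Arntl is opposite to Nr1d1.

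An axis over the mice was formed as the mean centred log2 level of Per1, Per2, Per3, Nr1d1, Nr1d2 and Dbp less that of Arntl, Clock and Npas2. Of 12666 genes outside the axis with a mean count of at least 100, the clock genes left out, the deviations most like it over 12 mice were those of Tjap1 (r = 0.89), Spry4 (r = 0.88), Slc26a6 (r = 0.88), Ephx2 (r = 0.87) and Adgrl4 (r = 0.85). The most opposite were Commd3 (r = -0.88), Prps1 (r = -0.88), Snhg20 (r = -0.86), Snrpd3 (r = -0.86) and Alkbh4 (r = -0.84). These genes are the extremes of 12666 coefficients over 12 mice, and so many genes give high coefficients by selection alone. None was tested, and no link of these genes to the clock is shown. Of the 19 partner genes ranked, 16 had positive coefficients, the highest being Bhlhe41 (r = 0.63), and 3 negative ones, namely Usp2 (r = -0.44), Arntl2 (r = -0.22) and Nampt (r = -0.07). The positive ones included Nfil3 (r = 0.60), which enters the phase index with a minus sign. Immediate early genes other than Jun and Npas4 also had positive coefficients. The share of positive coefficients over all ranked genes was not computed, so the count is not a result about the partner genes.

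Other conditions that can shift clock genes were examined by lists of genes. Of the 12 immediate early genes 1 passed the threshold, against 0.900% of all genes. It was Jun, with a difference of 0.31 (SE 0.065, limma adjusted p = 0.0424), while 8 of the 12 differences were negative, with a median of -0.04. Of the 12 glucocorticoid responsive genes, which include Fkbp5 and Sgk1, 0 passed with limma and 1 had an unadjusted p under 0.05, or 8.33% against 13.5% of all genes. Of the 8 temperature responsive genes 0 passed with limma and 4 had an unadjusted p under 0.05, or 50% against 13.5% of all genes. Among these 4 the differences were positive for the cold-induced Rbm3 (0.29) and Cirbp (0.23) and the heat-shock gene Hspa1b (0.33) and negative for Hsph1 (-0.13), and over the 8 genes 4 were positive and 4 negative. The part of these conditions in the clock genes was not tested. The interaction of sex and genotype passed the threshold for 0 of the 10 clock genes and 0 of 18221 genes with limma. The smallest unadjusted limma p among the 10 was 0.0762, for Per1, whose difference was 0.02 among females and 0.36 among males. With only 2 WT males and 2 USF-1 KO females, this test can miss differences between the sexes.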

How the data were processed

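RNA was taken from the hippocampus of 6 WT and 6 USF-1 KO mice, grouped by the genotype in the labels, with mouse numbers as replicate names. The deposited values are a signal per gene, namely reads that the authors scaled with 1 factor for each library. The submitters' processing notes name STAR 2.5.0a, edgeR 3.22.2 and the build mm10, and the methods name DESeq2; counter, annotation and strand setting are not given in the sources used here. Of 55487 deposited genes, 55141 were in GENCODE M21 and 54821 had the same coordinates there. In each library 100% of the values were whole multiples of 1 step (within 0.01 of a whole number), which gave back the reads. Counts of any 2 libraries differed with a chi-square of at least 4.54 for each degree of freedom, so none was a repeat.

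Genotypes were compared with limma 3.58.1 (R 4.3.3, mean-variance trend, two-sided) on log2(normalised count + 1) for genes averaging 10 or more normalised counts, with a threshold of 0.05 on the Benjamini-Hochberg adjusted p. On the recovered reads edgeR 4.0.16 (quasi-likelihood, TMM) called 151 genes and DESeq2 1.42.0 called 616. On simulated data limma and edgeR recovered nearly all genes that were doubled or halved, at the count level of the clock genes. Both missed many at low counts, and DESeq2 made more false calls than its threshold allows. Recovery of smaller differences, such as the 0.33 of Dbp and those of the other clock genes, was not tested. Other alternatives were the pseudocount, the limit on the mean, the scaling, covariates, the threshold and leaving out each mouse. All 10 clock genes were named, with partner genes that passed the threshold or entered the index; Ciart, Usp2, Tef, Rora, Jun and the temperature responsive genes were otherwise named after their values were seen. The clock genes and lists were chosen with earlier results of these data known. Each library came from its own mouse. Of the listed marker genes, 1 was left out and is not reported here. Plots used matplotlib 3.10.9 in Python 3.11.15.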

Additional observations from a re-analysis of the deposited data

Results flagged for a closer look

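In 92 groups of 6 mice (the 10 clock genes, the 22 partner genes, Usf1, Usf2 and 12 summed lists, in each genotype), a mouse was taken as standing apart when its gap to the nearest mouse exceeded 0.625 of the group's range. This held 10 times. Chance alone gives about 1 in 20 groups, and the groups share mice and in part genes, so that the times it held are not independent. The mouse WT-522 accounted for 4 of them, with normalised counts of 1728 for Per2 (the next WT mouse was at 1135), 1461 for Per3 (next 1198) and 1101 for Npas2 (next 816), and an immediate early sum of 29821 (next 19465). WT-493 stood apart for Usf1, at 842 (next 1425), and for the choroid plexus sum, at 161518 (next 57123). KO-488 stood apart for Rora, at 1678 (next 860), and for the sum of 6 thalamus markers, of which Rora is 1, at 6304 (next 2393). These levels were not particular to KO-488. WT-490 had a thalamus sum of 6299 and a Rora of 1751. It did not stand apart by this rule, as WT-573 was also raised, at 4121 and 1380. KO-530 had the highest Tef of its genotype, at 10481 (next 9590), and of Bhlhe40, at 3979 (next 3028).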

How the results depend on the processing

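No paired analysis was possible because each mouse number occurs once. The number of clock genes past the threshold, 0 of 10, became 1 with a mean of at least 50, quantile normalisation, sex as a covariate, DESeq2, a threshold of 0.1 or the immediate early level as a covariate, and that gene was Dbp each time. Leaving out 1 mouse gave 0 to 2, with Dbp and Per3 past the threshold without WT-522 and Dbp without KO-553. The cause was not tested. Over all genes, 161 of 14282 passed with a mean of at least 50 and 120 of 18221 with quantile normalisation. The 164 genes called over all became 98 with sex, 8 with the phase index, 106 with the choroid plexus level, 19 with the oligodendrocyte level and 295 with the immediate early level as a covariate, 59 without WT-490 and WT-493 together, 109 without the trend, 616 with DESeq2 and 343 at a threshold of 0.1, and 64 to 516 without 1 mouse (64 without WT-490, 516 without WT-522). The count of partner genes, 0 of 22, became 1 (Ciart) without WT-522, where 2.83% of all genes were called, and was 0 to 1 over the mice left out. The difference of Arntl, 0.01, turned to -0.012 with sex, -0.11 with the phase index, -0.050 with the choroid plexus level, -0.043 with the oligodendrocyte level and -0.073 without WT-490 and WT-493 together, and was -0.027 to 0.062 without 1 mouse. With the oligodendrocyte level Per1 turned to -0.15 and Per2 to -0.24. Npas2 turned to 0.24 with the phase index, of which it is part, and Nfil3 to 0.28 with it and 0.044 with sex. The correlation of Arntl with Clock turned to -0.056 by Spearman and -0.41 in WT alone, with Per1 to 0.060 without the 2 farthest mice, with Per2 to -0.091 by Spearman and -0.19 in WT alone, and with Per3 to -0.27 in WT alone. Clock, Per3, Cry1, Cry2, Nr1d1, Nr1d2 and Dbp kept their sign in each of 27 alternatives, though some differences came near 0. The smallest in size were -0.007 for Clock, 0.009 for Nr1d2, 0.026 for Per3 and -0.048 for Cry1. For Cry2, Nr1d1 and Dbp they were 0.064, 0.14 and 0.29. The oligodendrocyte and immediate early covariates and the omission of WT-490 with WT-493 were chosen after seeing the data. With 6 mice a genotype, the 95% interval of Per2, the widest of the 10, ran from -0.15 to 0.47.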
